A study of Arabidopsis thaliana with 27 samples.

Results

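This report describes 10 Arabidopsis genes of the nucleolus, out of 34262 gene entries counted in each of 27 root libraries. They are the nucleolins NUC-L1 (AT1G48920) and NUC-L2 (AT3G18610), NAP57 (AT3G57150), the fibrillarins FIB1 (AT5G52470) and FIB2 (AT4G25630), NOP56 (AT1G56110), NOP5 (AT5G27120), and the histone deacetylases HD2A (AT3G44750, also named HDA3), HD2B (AT5G22650) and HD2C (AT5G03740). The genes were selected on values measured in these same libraries, and the comparison that picked them is not recorded, so their values are given below as a description, and where the text counts those that passed a test across all genes, nothing is read from that count. The tests that are reported as results concern 74 other genes of ribosome biogenesis, a list also written with earlier results of these data known. All 10 genes were found by identifier in every library. In the TAIR10.1 annotation NUC-L1 and NOP56 lie on chromosome 1, NUC-L2, NAP57 and HD2A on chromosome 3, FIB2 on chromosome 4, and FIB1, NOP5, HD2B and HD2C on chromosome 5.

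The libraries came from root cells sorted by fluorescence after protoplasting, from 3 lines in the Col-0 background that each carry a GFP reporter. Non-hair epidermis was marked through the GL2 promoter, cortex through the CORTEX promoter, and pericycle at the xylem poles through E3754, an enhancer trap line, so each cell type stands for 1 reporter line and pooled seedlings. Each cell type has 3 libraries labelled mock (water), 3 labelled flg22 (a peptide of bacterial flagellin) and 3 labelled Pep1 (a peptide that plants release on wounding), numbered replicate 1 to 3. The sample labels give 1 h of incubation, an age of 10 d and a peptide dose of 1 mM. The series description gives a micromolar dose and a later harvest. The study's methods also give a micromolar dose, so the dose on the labels is uncertain. For the time they give 1 h of treatment, and reach the later harvest by adding the time of protoplasting and sorting. The age is uncertain too, since the study's methods give older seedlings. The study describes its replicates as independent experiments, and the libraries were sequenced in 7 pools as read from the library names.

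The nucleolus is where RNA polymerase I transcribes ribosomal RNA genes and where the precursor RNA is cut, modified and assembled with ribosomal proteins. Nucleolin binds ribosomal DNA chromatin and precursor RNA. In box C/D particles fibrillarin methylates ribosomal RNA on a scaffold of NOP56 and NOP5 (the NOP58 of yeast), and in box H/ACA particles NAP57, the plant dyskerin, makes pseudouridine. The HD2 proteins are a plant-specific family of histone deacetylases found in the nucleolus. Genes for ribosome assembly are known to follow the growth state of a plant cell.

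Short motifs recur upstream of plant genes for ribosomes, and the box C/D genes FIB1, NOP56 and NOP5 are shown because they were the members that held both motifs searched, and NUC-L1, which held neither, is shown beside them. Each sequence is the 250 bases that end just before the annotated start in RefSeq's TAIR10.1 assembly, 5′ to 3′ on the strand of the gene. Capitals mark the telo-box (AAACCCTA, or TAGGGTTT on the other strand) and site II (TGGGCC, or GGCCCA on the other strand).
FIB1, plus strand, chr5:21293897-21294146: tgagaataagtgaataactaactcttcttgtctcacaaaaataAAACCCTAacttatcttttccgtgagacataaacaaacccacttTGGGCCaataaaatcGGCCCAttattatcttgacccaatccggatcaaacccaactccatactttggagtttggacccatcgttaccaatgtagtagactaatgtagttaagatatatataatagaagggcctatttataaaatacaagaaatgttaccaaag
NOP56, minus strand, chr1:20986953-20987202: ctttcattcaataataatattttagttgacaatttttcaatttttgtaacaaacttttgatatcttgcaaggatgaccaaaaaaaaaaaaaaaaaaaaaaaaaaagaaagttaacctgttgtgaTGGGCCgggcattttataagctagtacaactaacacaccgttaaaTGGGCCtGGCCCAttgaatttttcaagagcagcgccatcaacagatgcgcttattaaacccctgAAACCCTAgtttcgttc
NOP5, plus strand, chr5:9540611-9540860: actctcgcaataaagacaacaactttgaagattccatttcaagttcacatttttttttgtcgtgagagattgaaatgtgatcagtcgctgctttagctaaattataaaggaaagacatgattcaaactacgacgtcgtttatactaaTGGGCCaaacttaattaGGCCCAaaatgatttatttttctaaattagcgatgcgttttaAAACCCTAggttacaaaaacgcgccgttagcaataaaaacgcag
NUC-L1, plus strand, chr1:18097831-18098080: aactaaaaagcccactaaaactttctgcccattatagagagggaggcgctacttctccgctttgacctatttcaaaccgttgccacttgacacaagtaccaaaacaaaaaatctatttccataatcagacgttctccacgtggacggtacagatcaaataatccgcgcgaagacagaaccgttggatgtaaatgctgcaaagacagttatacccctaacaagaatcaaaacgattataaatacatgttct
The telo-box was found in this window in 3 of the 10 genes (FIB1, NOP56 and NOP5). It was found in 8 of the 74 other ribosome biogenesis genes (10.8%) and in 4.49% of 27443 protein-coding nuclear genes. Site II was found in 4 of the 10, with 2 matches in FIB1, 3 in NOP56, 2 in NOP5 and 1 in HD2C. It was found in 33 of the other 74 (44.6%) and in 13.7% of all genes. The motifs do not overlap each other in the sequences shown. A match is a description of these letters, and no match in NUC-L1, NUC-L2, NAP57, FIB2, HD2A or HD2B says only that the letters are not in this window.

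Library depth ran from 4172741 to 17188823 gene counts (median 9872815), of which 2324426 to 12261749 fell on the nuclear genes used for normalization. Transcripts of the mitochondrial genome made up 21.9 to 42.0% of these counts and ribosomal protein genes 0.396 to 6.51%. The marker genes followed the sort, in part only for the cortex markers. Their sum was higher in pericycle flg22 replicate 1 than in cortex mock replicate 3. The summed level of 4 non-hair markers was 229 to 634 CPM in epidermis libraries, 22.1 to 56.5 in cortex libraries and 0.626 to 59.2 in pericycle libraries, where CPM are counts per 1000000 counts of the nuclear genes used, with TMM scaling. That of 3 cortex markers was 155 to 387 in the cortex, 2.35 to 6.96 in the epidermis and 24.4 to 171 in the pericycle, although CO2 was at 0 in all 9 cortex libraries and the sum came from AED3 and NUC/BIB2. That of 4 pericycle markers was 627 to 2046 in the pericycle and 13.9 to 47.2 elsewhere. The pericycle libraries varied most, with a biological coefficient of variation of 0.804, the epidermis having 0.334 and the cortex 0.36, and the library labelled pericycle flg22 replicate 3 had the lowest non-hair marker sum, 0.626 CPM. In sorted bulk samples fewer cells of a type and less RNA per cell cannot be told apart.

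Measured per length of exon, NUC-L1 was the most abundant of the 10 genes, with a mean over all libraries of 89.0 CPM per kb. FIB1 at 73.8 and NAP57 at 64.0 came next, followed by HD2B at 48.5 and FIB2 at 47.5. NOP5 at 28.8, NOP56 at 27.9, HD2A at 20.7 and HD2C at 18.8 were lower. NUC-L2 was at 1.01 CPM per kb, near 0 in most libraries. The order shifted between cell types. In the epidermis NUC-L1 at 132 ± 83.1 CPM per kb (SD, n = 9) stood above NAP57 at 108 ± 71.6 and FIB1 at 81.2 ± 49.5. In the pericycle FIB1 at 115 ± 55.8 and NUC-L1 at 108 ± 53.1 led. In the cortex NUC-L1 at 26.6 ± 23.4, FIB1 at 25.15 ± 21.4 and FIB2 at 20.8 ± 21.5 were close together. Neighbours in these orders differ by less than their spread over libraries, apart from NUC-L2, which in the epidermis lay below the lowest library of each other member. No 100-base stretch of exon of any of the 10 genes recurs elsewhere in the genome, the paralogous pairs included.

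**Figure D1:**
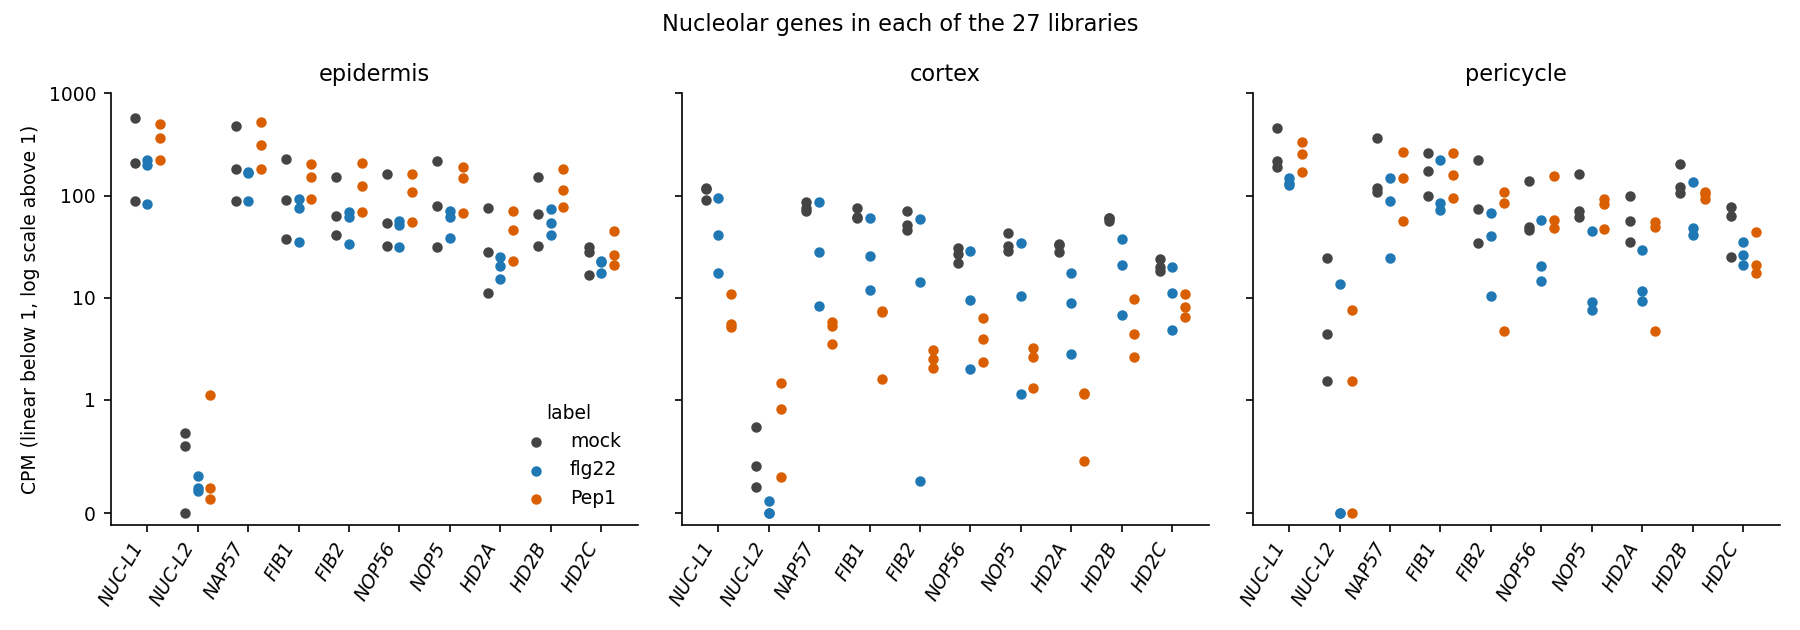
Level of each gene in CPM (vertical axis, linear below 1 and logarithmic above) in each of the 27 libraries, with 1 point per library coloured by label and 1 panel per cell type. In the cortex the 3 Pep1 points lie below the 3 mock points for 9 genes, while in the epidermis and the pericycle the labels overlap for most genes. NUC-L2 stays near 0 in the epidermis and the cortex and reaches 24.7 CPM in the pericycle.

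The cortex held the largest differences between labels. NUC-L1 was at 119, 116 and 90.6 CPM in mock replicates 1 to 3, at 17.4, 95.2 and 41.3 in the flg22 libraries, and at 5.54, 5.18 and 10.8 in the Pep1 libraries. Every Pep1 library thus lay below every mock library, and the flg22 libraries were spread over the range between, with replicate 2 at the level of mock. The fitted log2 difference of NUC-L1 between Pep1 and mock was -3.94 ± 0.51 (SE). NUC-L2 stayed at or under 1.46 CPM in all 9 cortex libraries, between 0 and 6 counts, and was not fitted.

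NAP57 repeated this pattern, with 71.3, 86.7 and 75.9 CPM in mock, 8.25, 86.9 and 27.8 in flg22, and 3.5, 5.34 and 5.77 in Pep1. Its log2 difference between Pep1 and mock was -4.09 ± 0.54. Among the box C/D genes, the methyltransferase FIB1 was at 76.2, 62.4 and 59.7 CPM in mock, 11.9, 60.3 and 25.4 in flg22, and 7.28, 1.62 and 7.38 in Pep1. Its difference between Pep1 and mock was -3.61 ± 0.64 on the log2 scale, again without overlap. The second fibrillarin, FIB2, was at 71.3, 46.2 and 51.5 CPM in mock and 2.04, 3.07 and 2.54 in Pep1. In flg22 it was at 0.284, 59.3 and 14.4, and the lowest of these rests on 1 count. Its log2 difference between Pep1 and mock was -4.72 ± 0.97. The scaffold genes had log2 differences of -2.83 ± 0.55 for NOP56 and -3.84 ± 0.80 for NOP5. NOP56 was at 26.5 ± 4.45 CPM in mock and 4.19 ± 2.00 in Pep1 (SD, n = 3), and NOP5 at 34.6 ± 7.15 and 2.38 ± 0.99.

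The HD2 genes held both the largest and the smallest of these differences. HD2A was at 28.2, 34.0 and 33.1 CPM in mock, 2.84, 17.5 and 8.93 in flg22, and 1.17, 1.13 and 0.461 in Pep1, a log2 difference between Pep1 and mock of -5.18 ± 0.60. The Pep1 values of HD2A rest on 2 to 7 counts per library. HD2B was at 60.3, 61.0 and 56.8 CPM in mock, 6.83, 37.6 and 20.7 in flg22, and 2.62, 4.37 and 9.69 in Pep1, a difference of -3.55 ± 0.51. HD2C moved least, from 19.8, 18.4 and 23.7 CPM in mock to 6.41, 10.8 and 8.07 in Pep1, a difference of -1.34 ± 0.42. HD2A and HD2B were the members whose 3 flg22 libraries also lay below all 3 mock libraries, as was so for 5.53% of the 16350 genes tested in the cortex.

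Taken as a group, 9 of the 10 genes could be fitted in the cortex, and in each of them the Pep1 libraries lay below all mock libraries. The same held for 12% of the 16350 genes tested, and since the genes may have been picked for this, nothing is read from their count. Their median log2 difference was -3.84, and 5 of the 9 (NUC-L1, NAP57, FIB1, HD2A and HD2B) passed the threshold of the test across all genes, a Benjamini-Hochberg adjusted p under 0.05 in edgeR, where 0.22% of 16350 genes passed it as lower. Nothing is read from that count either. The median over all genes tested was -0.03. Cortex-labelled flg22 libraries differed from mock by a median log2 difference of -1.45 over the 9 genes (range -1.88 to -0.93), no gene of any kind was called (0% of 16350, with 883 at an unadjusted p under 0.05), and both comparisons share the mock libraries. The cortex flg22 libraries were sequenced in another pool than mock, so for flg22 label and pool cannot be told apart.

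Among the 74 other ribosome biogenesis genes, 72 could be fitted in the cortex. Between Pep1 and mock, 7 of them were called lower and 0 higher, against the background of 0.22% called lower. Their median log2 difference was -2.62, 65 of the 72 were negative, and 55 were at an unadjusted p under 0.05 in edgeR, as were 2462 of all 16350 genes. In 55 of the list genes the Pep1 libraries lay below all mock libraries, where 12% of all genes did, and in 2 they lay above, where 6.15% did. The 3 with the smallest p were PES, pescadillo of large subunit assembly (-3.05 ± 0.41, adjusted p = 0.0246 in edgeR), the nucleolar GTPase gene NOG1-1 (-3.0 ± 0.42, adjusted p = 0.0246 in edgeR) and RRP5 of the small subunit processome (-3.31 ± 0.48, adjusted p = 0.0259 in edgeR). The other 4 were the helicase PRH75 (-2.53 ± 0.40), NOC3 (-4.50 ± 0.73), the box C/D core protein SNU13a (-4.50 ± 0.76) and the box H/ACA core protein GAR1a (-3.42 ± 0.59). By role, the median log2 difference was -3.10 for 5 box C/D genes, -3.22 for 4 box H/ACA genes, -2.69 for 22 genes of the small subunit processome, -2.58 for 27 of large subunit assembly and -1.47 for 3 genes of RNA polymerase I, the subunits NRPA1 and NRPA2 and the initiation factor RRN3. The highest values were on the other side of 0, among them REIL2, a late factor of large subunit maturation, at 0.94 ± 0.22, which was not called.

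**Figure D2:**
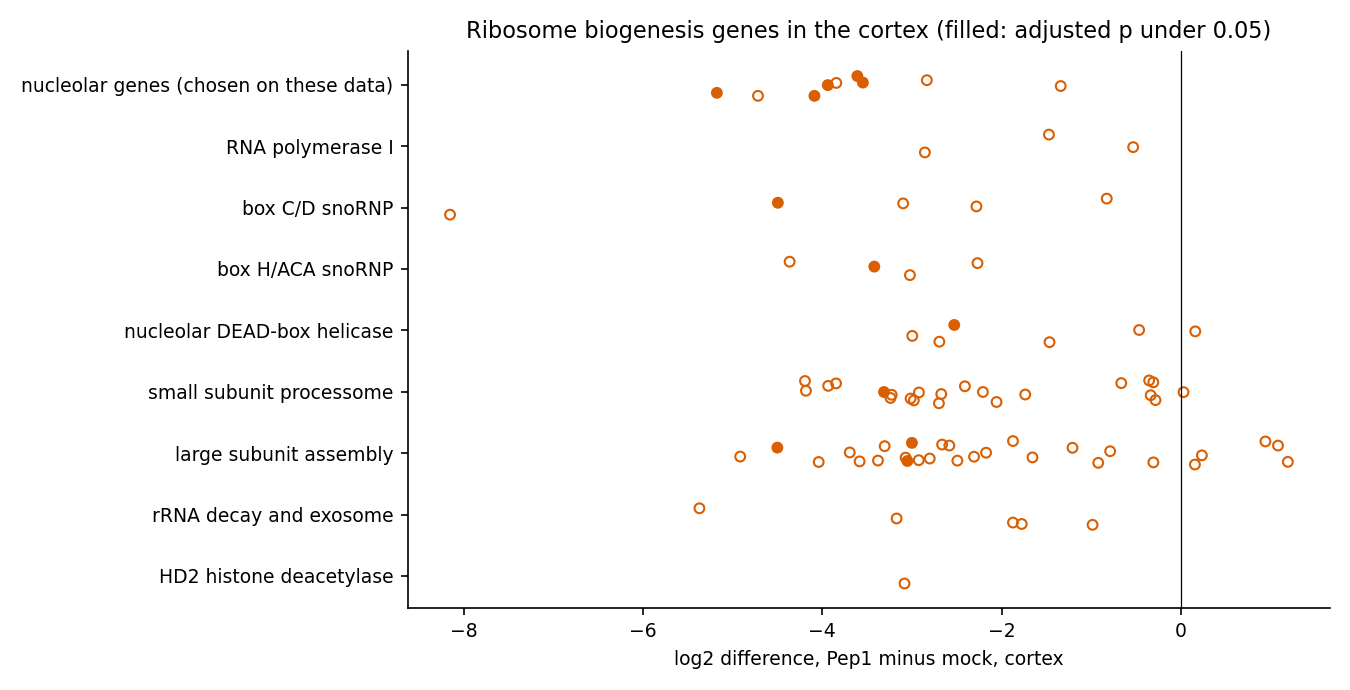
Log2 difference between Pep1 and mock in the cortex (horizontal axis) for the 9 nucleolar genes and the 72 other ribosome biogenesis genes fitted, 1 point per gene and 1 line per role, filled where the adjusted p was under 0.05. All 9 nucleolar genes and 65 of the 72 others lie left of 0, and 7 of the 72 are filled.

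The calls in the cortex rest on few libraries. With the replicate number left out of the model, 0 of the 72 list genes and 0 of the 9 members were called, and the medians stayed at -2.57 and -3.86. Leaving out mock replicate 1, or any 1 of Pep1 replicates 1 to 3, also left 0 of either called, with list medians from -2.12 to -2.85 and member medians from -3.13 to -4.31. Without mock replicate 1, 0 genes of any kind were called. Without flg22 replicate 2, 249 of all genes were called, and the list count rose to 22. The list count was 14 without flg22 replicate 1. Without mock replicate 2 it was 2, without mock replicate 3 it was 4, and without flg22 replicate 3 it was 4. DESeq2 with the same terms called 44 of the list genes, of which 43 were lower. The calls over all genes under DESeq2 are not given here, so nothing about the list is read from that count.

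The sequencing pool bears on the same comparison. The 3 cortex mock libraries and Pep1 replicate 3 were in 1 pool, and there Pep1 replicate 3 lay below the mean of the mock libraries by a median of -3.28 (range -5.41 to -1.32) on the log2 scale, negative for all 9 genes. The ribosomal protein genes, left out of the tests because the study describes their uneven amplification, moved along: they took 1.61 to 2.05% of the gene counts in cortex mock, 0.452 to 1.63% in flg22 and 0.396 to 0.722% in Pep1. The summed level of the 10 genes was 447 to 501 CPM in mock, 55.5 to 440 in flg22 and 35.0 to 52.8 in Pep1. Whether uneven amplification has a part in the difference was not tested. Gene counts were 5742286, 9973642 and 6849560 in the Pep1 libraries and 10022956, 11063171 and 14149915 in mock, and the cortex markers fitted had log2 differences of 0.35 and -0.13. The 4 non-hair markers had a median log2 difference of -0.94 (range -1.60 to 1.11), with 2 at an unadjusted p under 0.05 in edgeR, and their summed level was 30.4 to 36.7 CPM in Pep1 and 22.1 to 56.5 in mock. The 4 pericycle markers had a median of -0.18 (range -0.84 to 2.94), with 1 at an unadjusted p under 0.05, and summed to 19.6 to 30.3 CPM in Pep1 and 20.5 to 47.2 in mock. No marker was called, and the part of other cell types in the difference was not tested. Of 5 growth signaling genes (TOR kinase and S6 kinase pathway) none was called, and their median log2 difference was -0.04. Of 7 genes of cycling cells none was called either, and their median was -1.72. Summed over the whole list of cycling cells, the level was 61.8 to 84.9 CPM in Pep1 and 75.5 to 96.4 in mock, so the labels overlapped.

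**Figure D3:**
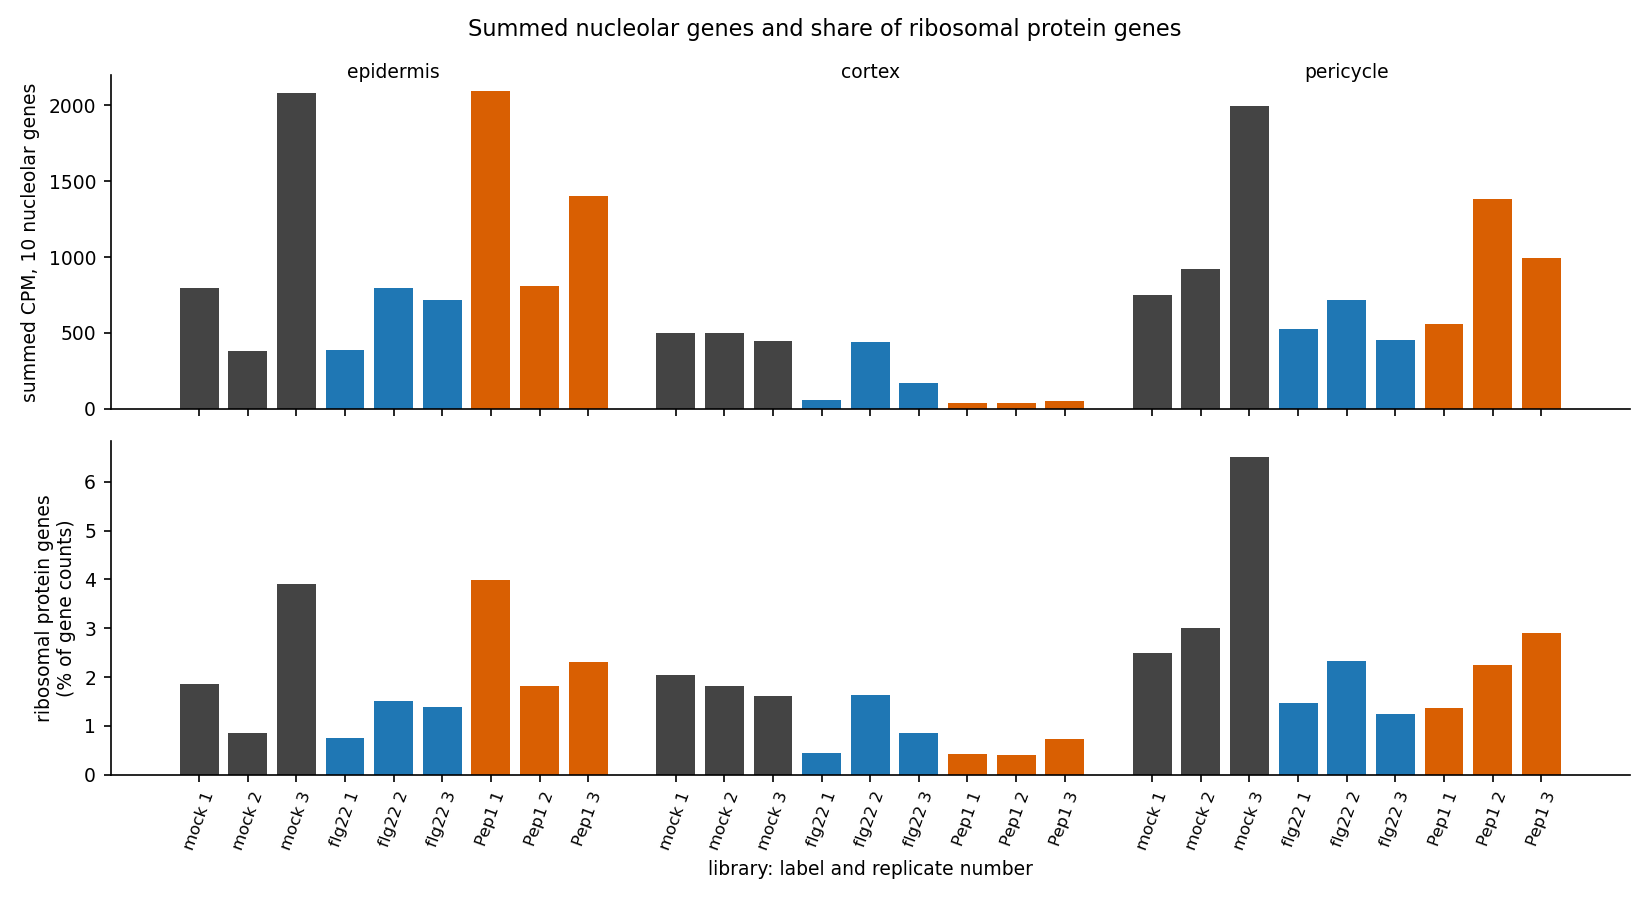
Summed CPM of the 10 nucleolar genes (upper bars) and share of gene counts on ribosomal protein genes in % (lower bars), 1 bar per library, coloured by label and ordered by cell type. Both are high in epidermis mock replicate 3, epidermis Pep1 replicate 1 and pericycle mock replicate 3, and low in the 3 cortex Pep1 libraries and cortex flg22 replicate 1.

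In the epidermis the genes varied more between libraries of 1 label than between labels. NUC-L1 was at 208, 88.5 and 581 CPM in mock replicates 1 to 3, at 83.4, 224 and 200.02 in flg22, and at 504, 225 and 367 in Pep1. Mock replicate 3 and Pep1 replicate 1 were the highest libraries, for 4 and 5 of the 10 genes, and mock replicate 2 and flg22 replicate 1 the lowest, for 5 and 4. NAP57 followed the same course, with 183, 88.1 and 478 CPM in mock, 89.1, 172 and 165 in flg22, and 531, 180 and 317 in Pep1. HD2C varied least there, from 16.7 to 44.9 CPM. Over the 9 genes above the filter, the highest library was 2.69 to 7.0 times the lowest. FIB1 and FIB2 kept near one another in the epidermis, with a ratio per length of 0.895 to 1.44.

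Epidermis flg22 differed from mock by a median log2 difference of -0.53 over 9 genes (range -0.58 to -0.23), and Pep1 by 0.56 (range 0.26 to 0.73). The labels overlapped for all 9 genes in both comparisons, where 4.88% of all genes were without overlap for flg22 and 1.9% for Pep1, and neither these genes nor any other gene was called (0% of 15977 in each, with 279 and 89 at an unadjusted p under 0.05 in edgeR). The direction depends on single libraries. Without mock replicate 3 the flg22 median became 0.21, with 9 of 9 genes changing sign, and without Pep1 replicate 1 the Pep1 median became -0.01. Mock replicate 3 was sequenced with the 3 Pep1 libraries, and against it alone Pep1 was lower in all 9 genes (median -0.68). Mock replicates 1 and 2 were sequenced with the flg22 libraries, and against them flg22 had a median of 0.11. Ribosomal protein genes took 3.91% of the counts in mock replicate 3 and 3.98% in Pep1 replicate 1, against 0.749 to 2.30% in the other 7 libraries, and their part was not tested. The 72 other ribosome biogenesis genes had medians of -0.58 for flg22 and 0.42 for Pep1.

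**Figure D4:**
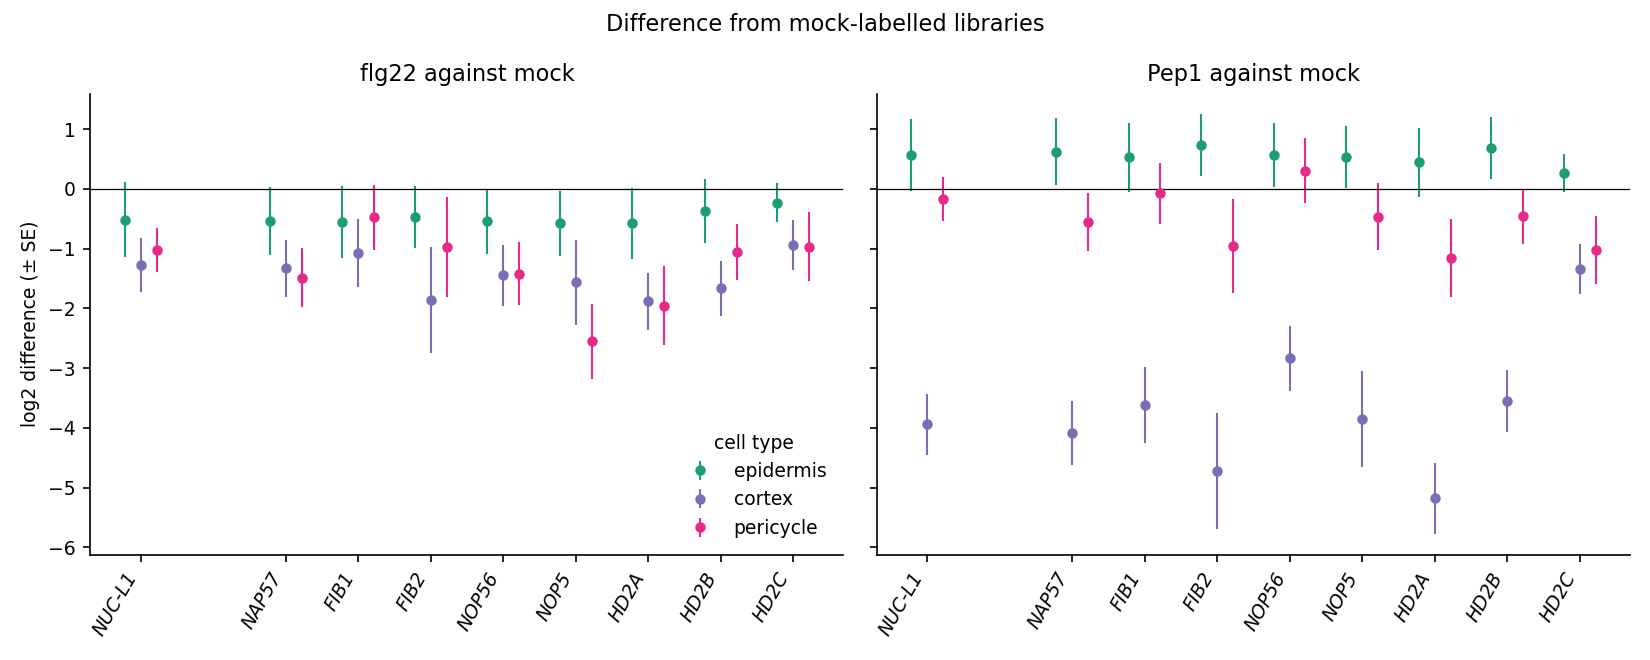
Log2 difference from the mock libraries (points, with SE as bars) of 9 genes in the 3 cell types, with flg22 in the left panel and Pep1 in the right one, and NUC-L2 not drawn because it was fitted in the pericycle alone. The cortex values under Pep1 run from -5.18 to -1.34 and stand below those of the epidermis, from 0.26 to 0.73.

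In the pericycle mock replicate 3 was the highest of the 9 libraries for 8 of the 10 genes. NUC-L1 was at 189, 218 and 464 CPM in mock, 134, 148 and 126 in flg22, and 170, 334 and 257 in Pep1, so that flg22 lay below mock without overlap and Pep1 overlapped mock. FIB1 was at 98.2, 172 and 264 CPM in mock, 225, 84.1 and 72.0 in flg22, and 93.9, 262 and 159 in Pep1. FIB2 did not follow FIB1 closely, being at 34.3, 73.4 and 221 CPM in mock, 40.6, 67.7 and 10.3 in flg22, and 4.70, 109 and 83.9 in Pep1. Their ratio per length ran from 1.16 to 19.4 in the pericycle, against at most 1.44 in the epidermis. The 19.4, in Pep1 replicate 1, rests on 13 counts of FIB2. In the cortex the ratio ran from 0.511 to 40.8, where the extremes rest on 1 to 19 counts of FIB2. NUC-L2 was seen mainly in this cell type, at 1.51, 24.7 and 4.39 CPM in mock, 0, 13.8 and 0 in flg22, and 7.58, 0 and 1.54 in Pep1. The 3 libraries at 0 and the one at 24.7 CPM, with 260 counts, show no common level within a label.

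Pericycle flg22 differed from mock by a median log2 difference of -1.23 over 10 genes (range -2.95 to -0.47), with NUC-L1, NOP5 and HD2A the genes that lay lower without overlap, as 8.17% of 17659 genes did. Pep1 differed by -0.46 (range -1.16 to 0.31). None of the 10 genes was called in either, where 0% of 17659 genes were called for flg22 (with 1281 at an unadjusted p under 0.05) and 0.0113% for Pep1 in edgeR. Without mock replicate 3 the Pep1 median became 0.21. Without flg22 replicate 3, the library with the lowest non-hair marker sum, the flg22 median was -1.06. Ribosomal protein genes took 6.51% of the counts in mock replicate 3 and 1.24 to 3.01% in the other 8 libraries. The pericycle marker sum was 1194 to 2046 CPM in flg22 and 627 to 1073 in mock, the non-hair marker sum 0.626 to 29.8 and 44.9 to 58.3, and the mitochondrial share of gene counts 33.0 to 35.4% and 22.8 to 30.4%. All 3 thus moved with the flg22 label without overlap, and their part in the difference was not tested. The pericycle mock libraries share no pool with the flg22 or the Pep1 libraries, so that label and pool cannot be told apart in either comparison. The 73 other genes of the list had medians of -0.91 and -0.39, with 0 called, and with 15 and 2 at an unadjusted p under 0.05.

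Whether an effect differed between cell types was tested over all 27 libraries. For Pep1, 0 of the 73 list genes and 0 of the 10 members passed, as 0% of 19108 genes did, and 41 of the 73 list genes were at an unadjusted p under 0.05 against 1092 of all genes. For flg22 the list again had 0 genes past the threshold where 0.0471% of all genes passed, with 3 at an unadjusted p under 0.05. The difference in response between cortex and the other cell types is therefore not past the threshold in edgeR.

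Libraries of one replicate number were compared with those of another, with the label as the other term. In the cortex the 9 genes were higher in number 2 than in 1 by a median log2 difference of 1.00, and higher in number 3 than in 1 by 0.41. Most of this came from the flg22 libraries, all of 1 pool, where number 2 exceeded number 1 by a median of 2.50 (range 1.98 to 6.70), while in cortex mock, also of 1 pool, the median was 0.02. Without flg22 replicate 1 the median for number 3 against 1 became -0.14. In the epidermis the medians were -0.40 for number 2 against 1 and 0.54 for number 3 against 1. The direction was not shared by the labels, since number 2 exceeded number 1 in flg22 (median 0.86) and was below it in mock (-1.05) and Pep1 (-1.50). In the pericycle the medians were 1.16 and 0.86, with FIB2 in number 2 and NOP56 in number 3 the genes higher than number 1 without overlap, as were 5.52% and 6.53% of all genes. None of the members was called in these comparisons. The share of all genes called for number 2 against 1 was 1.78% for epidermis, 1.9% for cortex and 0.0906% for pericycle. For number 3 against 1 it was 5.36% in the epidermis, and, counting genes called higher, 6.65% in the cortex and 0.476% in the pericycle.

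Of the other ribosome biogenesis genes, 2 of 72 were called higher in number 3 than in number 1 in the cortex, REIL2 (1.04 ± 0.22, adjusted p = 0.0101 in edgeR) and SWA2 (1.13 ± 0.26, adjusted p = 0.014 in edgeR), both of large subunit assembly. Their share lies under the 6.65% of all genes. In the pericycle SNU13a was called higher (2.36 ± 0.49, adjusted p = 0.0376 in edgeR). Differences of the numbers between cell types were called for 0 list genes and 0 members, where 0.00523% of all genes passed in each of both tests.

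Between cell types, the 9 mock libraries were compared first. No sequencing pool held mock libraries of more than 1 cell type, so cell type and pool cannot be told apart here. Epidermis exceeded cortex by a median log2 difference of 0.39, with NAP57 at 1.27 ± 0.44 as the highest and NUC-L2 at -0.35 as the lowest, and none was called, where 5.75% of 17725 genes were called higher. The cortex lay below the pericycle in all 10 genes (median -1.21), and none was called, where 4.15% were called lower. Epidermis lay below pericycle by a median of -0.53, and NUC-L2 (-4.09 ± 1.12) was the 1 member called lower, where 10.2% of genes were. NUC-L2 passed the count filter only through the pericycle, with 14, 260 and 31 counts in mock against 0, 3 and 5 in epidermis mock. Nothing is read from its call. Of the 72 other ribosome biogenesis genes, 6 were called higher in epidermis than cortex (THAL, BMS1, KRR1, SMO4, SPB1 and LSG1-2, at 1.37 to 2.09), 4 lower in cortex than pericycle and 2 lower in epidermis than pericycle, SNU13a at -2.11 and SNU13b at -1.77. Their shares lie near the 5.75% and 4.15% of all genes for the pairs with cortex, and under the 10.2% for epidermis against pericycle. Nothing about the list is read from these counts.

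Over all 27 libraries the cortex stood lower. The epidermis libraries share no pool with those of the cortex or the pericycle, so epidermis and pool cannot be told apart here either. The median log2 difference between epidermis and cortex was 2.00, from -0.21 for NUC-L2 to 2.85 ± 0.60 for NAP57, and all members but NUC-L2 were called higher, where 19% of 19108 genes were. Cortex against pericycle had a median of -1.95, with 9 of the 10 called lower, where 22.1% of genes were. Between epidermis and pericycle the median was 0.30, and NUC-L2 was again the 1 member called, at -3.56 ± 1.04, where 23.3% of genes were called lower. It again passed the count filter only through the pericycle, and nothing is read from its call. HD2A was at -0.06 between epidermis and cortex in the mock libraries and at 1.76 over all libraries. In the list, 55 of 73 genes were called higher in epidermis than cortex and 1 lower, against 19% and 19.9% of all genes. For cortex against pericycle 57 were called lower, and for epidermis against pericycle 2 were called higher and 6 lower, where 22.1% and 23.3% of all genes were. The all-library values include the low Pep1 and flg22 libraries of the cortex. Within the 1 pool that holds Pep1 libraries of both cortex and pericycle, with 2 of each, cortex lay below pericycle by a median of -4.74 on the log2 scale over 9 genes (range -5.40 to -1.17), NUC-L1 having the lowest value.

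**Figure D5:**
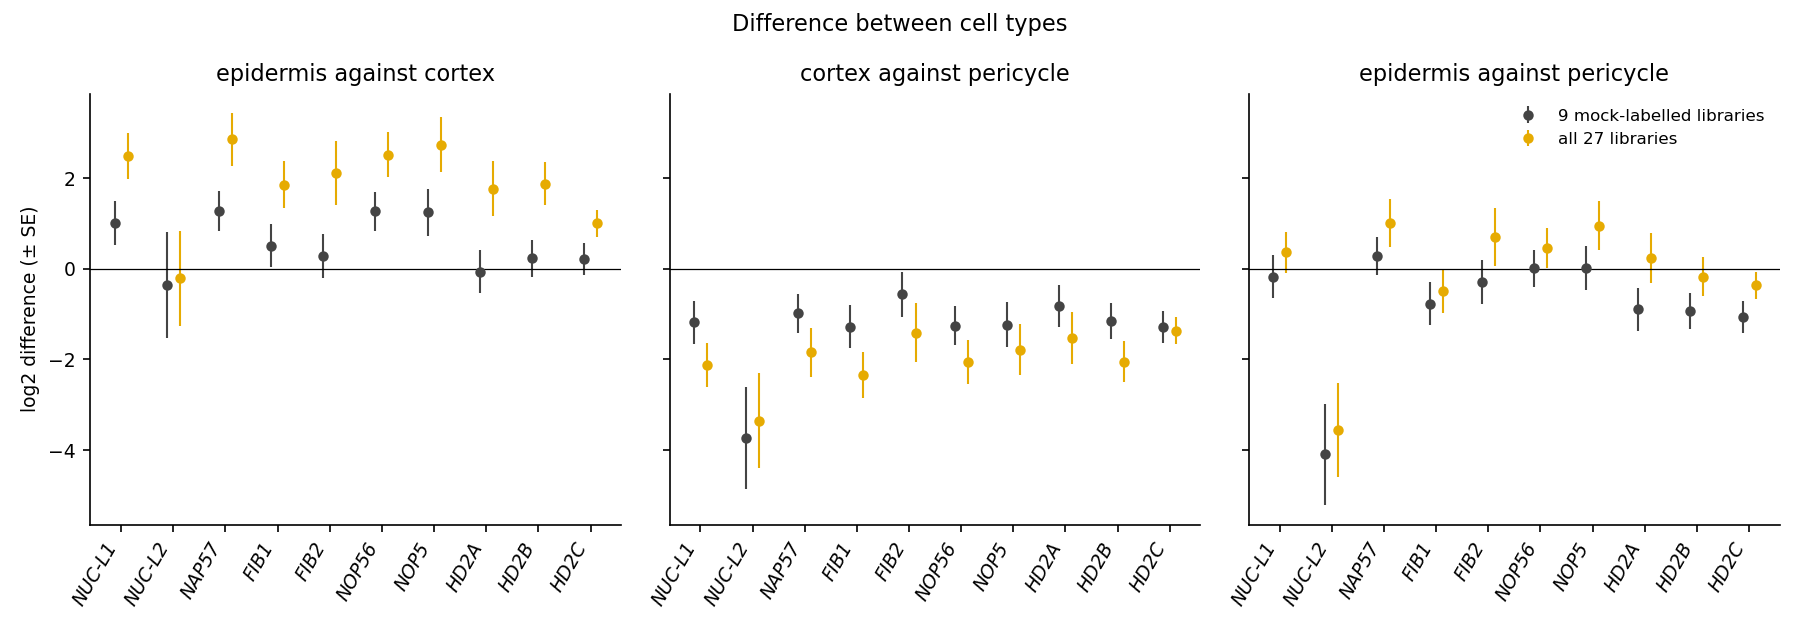
Log2 difference between cell types (points, with SE as bars) for each of the 10 genes in the 9 mock-labelled libraries and in all 27 libraries, 1 panel per pair. Epidermis against cortex has a median of 0.39 in the mock libraries and 2.00 in all libraries. NUC-L2, which passed the count filter only through the pericycle, lies at -4.09 and -3.56 between epidermis and pericycle.

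The genes most like NUC-L1 were sought by Pearson correlation over the 27 libraries of log2 CPM centred within each cell type, over 17984 genes with a mean of at least 1 CPM. The libraries share depth, pool and normalization, so the values describe likeness and carry no p. The 5 genes outside the 10 with the highest values were NRPA2, a large subunit of RNA polymerase I (r = 0.959), CPN10, a chaperonin (0.955), AT1G13030, annotated as a protein like that of sphere organelles (0.939), AT5G12410, a THUMP domain protein (0.939), and UBQ5, which encodes ubiquitin fused to a ribosomal protein (0.936). Among the members FIB1 ranked the third of all genes (0.946), HD2B followed at 0.943, and NAP57 was at 0.937. HD2A at 0.898, NOP5 at 0.887, NOP56 at 0.853 and FIB2 at 0.813 were lower. HD2C at 0.691 and NUC-L2 at -0.06 were least like NUC-L1. The most abundant list genes per length were GAR1a at 60.5 CPM per kb, PRH75 at 38.5 and SNU13a at 36.0.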

How the data were processed

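The authors deposited 1 table of raw counts per library, whole read pairs per gene from reads mapped to TAIR10 and, by the study's methods, counted over exons of the Araport annotation without strand. The study names STAR and LiBiNorm, whereas the submitters' processing notes name TopHat2 2.0.14 and HTSeq, and how the tables relate to each was not resolved. Entries that name no gene (no feature, 5.24 to 9.31% of the summed entries of a library, ambiguous or aligned to several places, the last 31.1 to 66.2%) stayed out of library sizes. Left out of the tests were 152 mitochondrial, 133 plastid, 4 rRNA and 380 ribosomal protein genes and 1429 entries with an RNA identifier, leaving 32164 genes. The list genes SNU13a, SNU13b, SNU13c, NHP2 and IMP3 are named after a ribosomal protein family in the reference but were not left out. edgeR 4.0.16 (limma 3.58.1, R 4.3.3) was run with TMM, filterByExpr (minimum count 10, total 15) and quasi-likelihood F tests. Each cell type was fitted on its 9 libraries with label and replicate number as terms, cell types on the 9 mock libraries and on all 27, and differences of effects over all 27. The Benjamini-Hochberg adjustment ran over all genes tested, and called means an adjusted p under 0.05. Standard errors came from the log2 difference and the F statistic. log2 CPM used a prior count of 2.

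The 10 genes and the lists were chosen with earlier results of these data known. The list held 76 genes, of which 2 were dropped because the reference names them otherwise. Named were all 10 genes, the 3 called list genes with the smallest p per direction in each comparison within a cell type, the 3 most abundant list genes, the 5 genes most like NUC-L1, and marker genes. The other called list genes and REIL2 were named after their values were seen. Alternatives were DESeq2 1.42.0, no replicate block or no label term, RLE, total counts, no filter, ribosomal protein genes kept, the 6 libraries compared, conditions of 1 pool, and leaving out each library. Comparisons within a pool were added after seeing the data. The procedure was run on simulated cortex counts that held no replicate, pool or amplification effect, so the run says nothing about those. Replicates differed by 24.8 to 113 times counting noise, so none was a duplicate. Positions and sequences are those of TAIR10.1 (RefSeq). Tables were handled in Python 3.11.15.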

Additional observations from a re-analysis of the deposited data

Results flagged for a closer look

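FIB2 was at 221 CPM in the library labelled pericycle mock replicate 3, while the next highest of the 9 pericycle libraries was at 109 CPM. The gap is 0.517 of the range of the 9 libraries, beyond the limit for 1 library apart from the rest. It was the 1 such case among 30 sets of 9 libraries, 10 genes in 3 cell types. By chance about 1 set in 20 passes this limit, so 1 case among 30 sets is no more than chance gives. The 9 libraries hold 3 labels, and the same library was the highest for 8 of the 10 genes.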

How the results depend on the processing

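The count of other ribosome biogenesis genes called lower or higher in cortex Pep1 against mock was 7. It became 44 with DESeq2, 44 without the filter on low counts, 15 with only the 6 libraries compared and 0 with no replicate block, and ran from 0 to 22 when 1 library was left out. Over all genes the calls ran from 0 to 249 when 1 library was left out. For the other counts in this section the calls over all genes are not given here, so nothing about the list is read from them. The replicate block takes up a difference between the numbers, but the same numbers did not pair the samples throughout. Same-numbered libraries correlated at 0.0287 to 0.429 in the cortex (median 0.306), -0.19 to 0.608 in the epidermis (0.386) and -0.0514 to 0.182 in the pericycle (0.0788). Different-numbered ones reached 0.04 in the cortex (median -0.0668), 0.241 in the epidermis (-0.0981) and 0.0769 in the pericycle (-0.0373). The cause of the lost calls was not tested. With no filter 1 list gene was called in cortex flg22 against mock and 3 in pericycle flg22 against mock, where DESeq2 called 5, all against 0. For pericycle number 2 against 1, DESeq2 called 1 against 0. Number 3 against 1 had 2 calls in the cortex and 1 without the label term. In the pericycle it had 1 call, 0 without the label term, 2 without the filter and 8 with DESeq2. Leaving out 1 library gave 0 to 1 calls there, 0 to 1 in the epidermis (0 with all libraries), 1 to 3 in the cortex, and 0 to 1 for cortex number 2 against 1.

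In the mock libraries the 6 calls between epidermis and cortex became 1 with no replicate block, 13 with DESeq2 and 56 with all 27 libraries, and ran from 0 (without cortex mock replicate 3) to 23 (without epidermis mock replicate 2). The 2 calls between epidermis and pericycle became 0, 5 and 8 under the same settings, and ran from 2 to 4. The 4 calls between cortex and pericycle became 0, 29 and 57, and ran from 0 to 26, the latter again without epidermis mock replicate 2. HD2A turned from -0.06 to 1.76 between epidermis and cortex with all 27 libraries. RLE, total counts and kept ribosomal protein genes left every list count within 1.5 times. Of 2152 values of single members under an alternative, 2046 kept their direction or stayed uncalled, 33 lost a call and 72 gained one. Depth limits NUC-L2, at 0 in 6 libraries, and the cortex Pep1 libraries, where HD2A had 2 to 7 counts.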
